A study of Bos taurus with 31 samples.

Results

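The antioxidant enzymes CAT, SOD1, SOD2, SOD3, GPX3, GPX4, PRDX1, PRDX3, PRDX5 and PRDX6 were examined in the liver of dairy cows fed glyphosate (GLY) residues and different concentrate feed proportions (CFP). The members were 10 listed genes, found by the symbol that stands beside each Ensembl identifier in the raw count table. Of these, 9 had 1 row each among the 24616 rows, and all 9 were among the 15916 genes tested. GPX4 was not analysed here.

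Superoxide and hydrogen peroxide arise as by-products of respiration and of oxidase reactions, and the liver, with its dense mitochondria and peroxisomes, handles large amounts of both. Superoxide dismutases turn superoxide into hydrogen peroxide, which is then removed by catalase in peroxisomes, by glutathione peroxidases at the cost of glutathione, and by peroxiredoxins at the cost of thioredoxin. SOD3 and GPX3 are secreted and act outside the cell, while the other enzymes work in the cytosol, the mitochondria or the peroxisomes.

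Lactating German Holstein cows received for 16 weeks a total mixed ration with a high (HC, 60% of dry matter) or a low (LC, 30%) CFP, the age of the cows not being stated in the labels. The ration of the GLY groups held peas, wheat and straw from fields sprayed before harvest with a glyphosate formulation, and the ration of the control (CON) groups did not. The CON cows were not free of GLY, since the paper reports a small intake from background residues. It also reports a higher GLY exposure in GLY_HC than in GLY_LC, which cannot be told apart from CFP within the GLY cows. Liver was taken by puncture biopsy at week 16, and 1 library per cow was made from 8 cows of CON_HC, 8 of CON_LC, 8 of GLY_HC and 7 of GLY_LC, 31 in all. The comparisons ask whether the transcripts of these enzymes differ with GLY, with CFP or with their combination, with oxidative stress in view. The counts do not measure enzyme protein, enzyme activity or oxidative damage, so that transcripts alone cannot show whether oxidative stress was present. The sprayed formulation also held other components, whose part cannot be told apart from that of GLY.

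Each library had 11675775 to 36675542 reads on genes (median 19781078), and the 9 enzymes together took 0.638 to 1.02% of them. Levels are given as CPM, counts scaled to 1000000 reads of the library size after TMM normalization, which are not divided by gene length, so that levels of different enzymes were not compared. Uniquely mapped reads were counted, and levels of genes with near-identical copies elsewhere in the genome are uncertain to that extent. All 8 hepatocyte markers had reads in every group, and their summed level was 106007 to 215234 CPM per cow. The lowest of these sums belonged to GLY_LC cow 912, the next lowest being 126319 CPM. The library of this cow also stood apart in smooth muscle markers, 1621 CPM in sum against at most 404 CPM in the other cows, and in the intestinal gene FABP2, 206 CPM against at most 0.163 CPM. The intestinal markers MUC13, VIL1 and OLFM4 also exceeded all other cows, while APOA4, at 223 CPM, was within their 18.1 to 366 CPM. Of the smooth muscle markers, ACTA2 was within the range of the others, at 79.9 CPM against at most 130 CPM. In CON_LC cow 103 the stellate cell and fibroblast markers summed to 2160 CPM against at most 457 CPM in the others, and no call of an enzyme changed without it. The values of cow 912 are shown separately, and a part of the differences is also given without it. Others moved too, such as SOD2 in GLY_LC versus CON_LC, from 0.19 to 0.02 on the log2 scale without this cow. CAT in GLY_HC versus GLY_LC went from 0.11 to -0.01.

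None of the 9 enzymes was called as differentially expressed in any of the 7 contrasts, a call being an unadjusted p under 0.05 with an adjusted p (Benjamini-Hochberg over all 15916 genes) under 0.1 in edgeR's quasi-likelihood test. For HC versus LC over all cows, 0 of 9 enzymes were called against 1.45% of all genes, and 2 of 9, SOD3 and GPX3, had an unadjusted p under 0.05 against 13.7% of all genes. For GLY versus CON over all cows, 0 of 9 were called against 0% of all genes, and 1 of 9, GPX3, had an unadjusted p under 0.05 against 3.92%. Without cow 912 the unadjusted p of GPX3 for GLY versus CON was 0.085 (edgeR). DESeq2 on the same counts called 1 enzyme, GPX3, for HC versus LC (log2 fold change -1.74, adjusted p = 0.0470) and 0 in the other 6 contrasts. Without cow 912 that call was lost (log2 fold change -0.98, DESeq2, adjusted p = 0.294).

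Within the single diets the picture was similar. In CON_HC versus CON_LC 0 of 9 were called against 0% of all genes, and SOD3 alone had an unadjusted p under 0.05 (1 of 9, against 5.96%). That count fell to 0 when certain single cows were left out (edgeR), among them CON_HC cows 133, 170 and 208 and CON_LC cows 60, 103, 145 and 259. In GLY_HC versus GLY_LC 0 of 9 were called against 0.201%, and GPX3 alone had an unadjusted p under 0.05 (1 of 9, against 12.5%). In GLY_LC versus CON_LC 0 of 9 were called against 0.0628%, and GPX3 was again the single enzyme with an unadjusted p under 0.05 (1 of 9, against 5.65%). Both of these GPX3 results were lost without cow 912. The unadjusted p was then 0.228 in GLY_HC versus GLY_LC and 0.376 in GLY_LC versus CON_LC (edgeR). In GLY_HC versus CON_HC and in the interaction of GLY with CFP, 0 of 9 were called against 0% in both, and 0 of 9 had an unadjusted p under 0.05 against 2.92% and 4.21% of all genes. In none of the 4 comparisons of single groups did the values of an enzyme separate the groups without overlap, which 0.0188%, 0.0942%, 0.00628% and 0.00628% of all genes did in CON_HC versus CON_LC, GLY_HC versus GLY_LC, GLY_HC versus CON_HC and GLY_LC versus CON_LC.

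**Figure D1:**
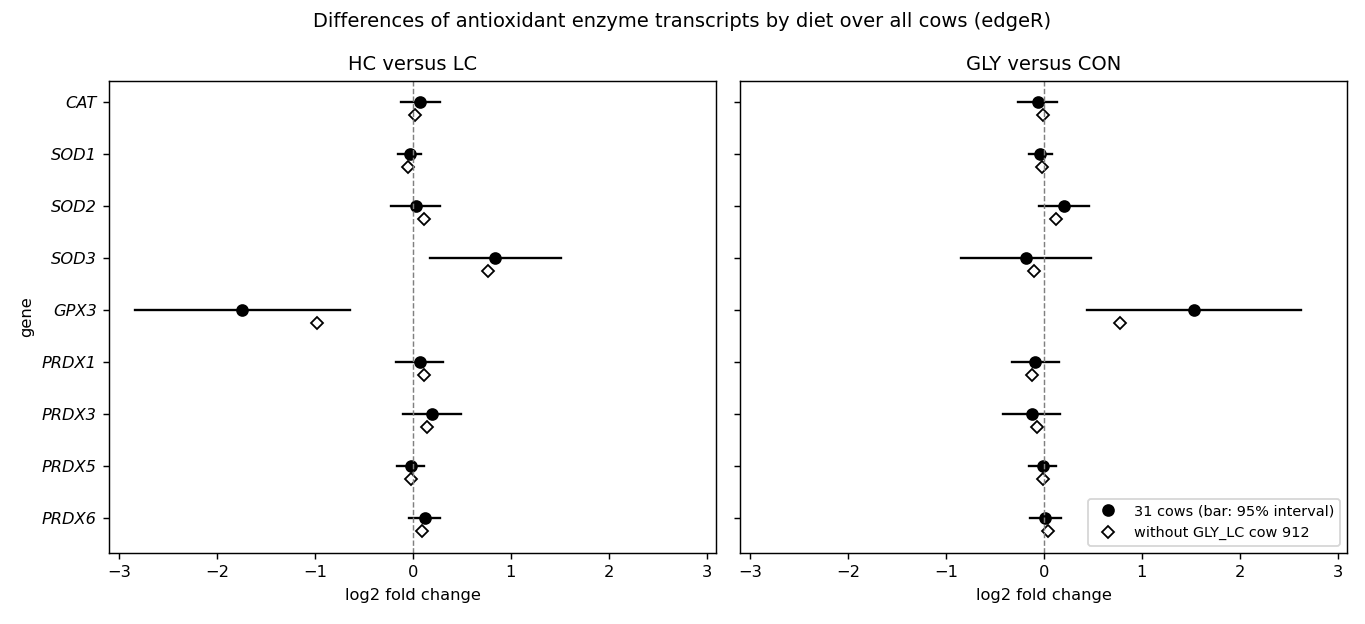
Log2 fold changes of the 9 enzymes between HC and LC cows (left) and between GLY and CON cows (right), from edgeR fits to 31 cows, with 95% intervals as bars and the value without GLY_LC cow 912 as an open diamond. For 7 enzymes the interval lay across 0 in both panels, while GPX3 was away from 0 in both and SOD3 in the left panel. Without cow 912 the interval of GPX3 in the right panel, which is not drawn, was -0.11 to 1.66 and lay across 0.

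SOD1, the cytosolic copper and zinc superoxide dismutase, had the smallest SD of log2 CPM between cows of 1 group among the 9 enzymes. Its group means were 673.5 ± 95.7 CPM in CON_HC (SD, n = 8), 691 ± 34.2 in CON_LC (n = 8), 658 ± 44.4 in GLY_HC (n = 8) and 671 ± 87.9 in GLY_LC (n = 7). The highest group mean exceeded the lowest by a factor of 1.05. HC cows differed from LC cows by -0.03 on the log2 scale (95% interval -0.15 to 0.08) and GLY cows from CON cows by -0.04 (-0.15 to 0.08).

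SOD2, the manganese superoxide dismutase of the mitochondrial matrix, was at 12.7 ± 2.16 CPM in CON_HC, 12.5 ± 1.85 in CON_LC, 14.7 ± 1.77 in GLY_HC and 14.3 ± 5.79 in GLY_LC. Its lowest and its highest value both came from GLY_LC, 4.76 CPM in cow 102 and 24.1 CPM in cow 912, and the other 29 cows lay within 8.95 to 17.1 CPM. The difference between GLY and CON cows was 0.21 on the log2 scale (95% interval -0.05 to 0.46), and that between HC and LC cows was 0.03 (-0.22 to 0.28). Without cow 912 they were 0.13 (-0.10 to 0.36) and 0.11 (-0.12 to 0.34). Neither difference passed the test.

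CAT, the peroxisomal catalase, was at 7477 ± 828 CPM in CON_HC, 7279 ± 1404 in CON_LC, 7323 ± 996 in GLY_HC and 6785 ± 1604 in GLY_LC. The lower mean of GLY_LC came with 1 value, 3244 CPM in cow 912, while the other 6 cows of that group lay between 6808 and 7935 CPM, with a mean of 7376 ± 400.2. Cow 912 also had the lowest sum of hepatocyte markers, but the list was split, since ALB, at 42900 CPM against at least 74791 in the other cows, TF, TTR, SERPINA1 and CYP2E1 were lowest of all cows, while FGB, at 42252 CPM against at most 33433, and APOA1, at 714 CPM against at most 632, were highest and APOB was within the range of the others. Fewer hepatocytes in the biopsy and less CAT transcript per hepatocyte cannot be told apart in bulk RNA. The differences were 0.07 (95% interval -0.13 to 0.27) for HC versus LC and -0.06 (-0.26 to 0.13) for GLY versus CON on the log2 scale. Without cow 912 they were 0.02 (-0.14 to 0.17) and -0.0042 (-0.16 to 0.15).

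The 4 peroxiredoxins measured, PRDX1 of the cytosol, PRDX3 of the mitochondria, PRDX5 of several compartments and PRDX6, which uses glutathione in place of thioredoxin, showed no call in any contrast. PRDX5 was the most even of them, with group means of 102 to 106 CPM, a ratio of the highest to the lowest mean of 1.04 and differences of -0.02 (95% interval -0.16 to 0.12) for HC versus LC and -0.01 (-0.15 to 0.13) for GLY versus CON. PRDX6 had group means of 216 ± 34.7 CPM in GLY_LC to 246 ± 55.4 CPM in GLY_HC, with differences of 0.12 (-0.04 to 0.28) and 0.01 (-0.15 to 0.17). PRDX1 ranged from 36.3 ± 8.33 CPM in GLY_LC to 40.6 ± 9.69 CPM in CON_HC, with differences of 0.07 (-0.17 to 0.31) and -0.09 (-0.33 to 0.15).

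PRDX3, which reduces hydrogen peroxide in the mitochondrial matrix, had the widest spread among the peroxiredoxins. Its values ran from 159 to 367 CPM in CON_HC (median 253), from 142 to 298 in CON_LC (median 236), from 163 to 305 in GLY_HC (median 238) and from 116 to 293 in GLY_LC (median 199). All groups overlapped over most of their range. The differences were 0.20 (95% interval -0.10 to 0.49) for HC versus LC and -0.12 (-0.42 to 0.17) for GLY versus CON. Without cow 912 the differences for HC versus LC and GLY versus CON were 0.15 and -0.07 for PRDX3, 0.11 and -0.13 for PRDX1 and 0.09 and 0.04 for PRDX6.

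**Figure D2:**
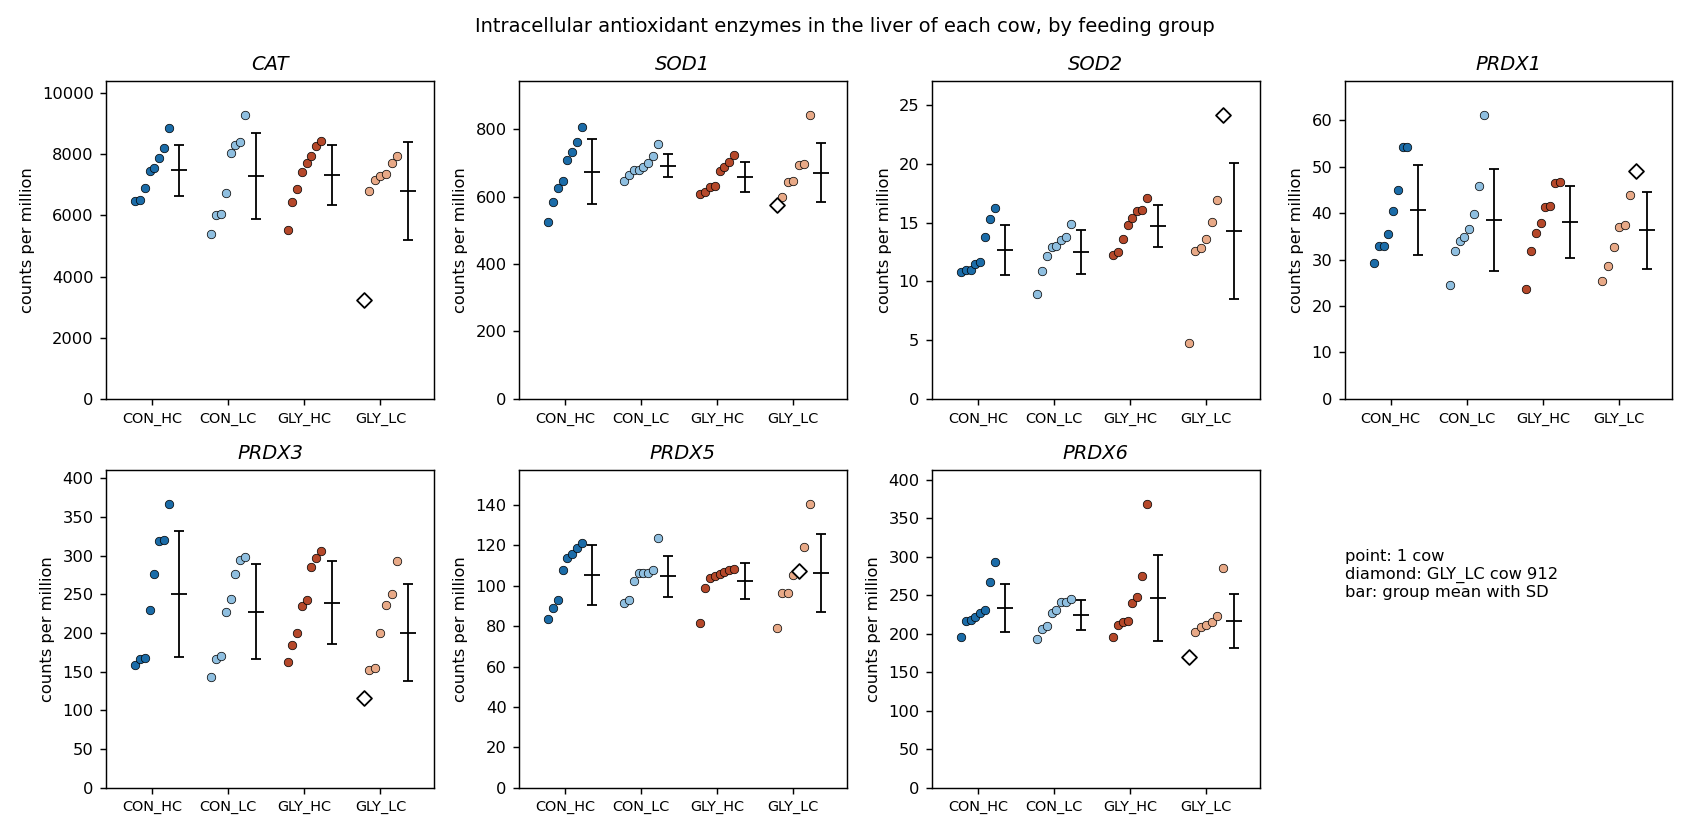
Levels in CPM of the 7 intracellular enzymes in each of 31 cows (points, sorted within a group), with the group mean and SD beside them and GLY_LC cow 912 as an open diamond; the vertical axes start at 0. The groups overlap in all 7 panels, and cow 912 is the lowest of 31 cows for CAT, PRDX3 and PRDX6 and the highest for SOD2.

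GPX3, the selenium-dependent glutathione peroxidase found in plasma, showed the largest differences of the 9 enzymes. It ran from 7.00 to 48.2 CPM in CON_HC (median 28.7) and from 5.82 to 231 CPM in CON_LC (median 47.9). In the GLY groups it ran from 10.6 to 148 CPM in GLY_HC (median 41.4) and from 28.6 to 1382 CPM in GLY_LC (median 88.7). The medians were higher in LC than in HC under both treatments and higher in GLY than in CON at both CFP, but the groups overlapped. Neighbours in the order of the means (GLY_LC, CON_LC, GLY_HC, CON_HC) differed by at most 0.576 of the larger of their SDs in CPM. This order does not set HC beside LC within a treatment, and the SD of GLY_LC was 491 CPM with cow 912 and 66.6 CPM without it.

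The log2 fold change of GPX3 for HC versus LC was -1.74 (SE 0.54, 95% interval -2.84 to -0.65; edgeR, adjusted p = 0.125). For GLY versus CON it was 1.54 (SE 0.53, 95% interval 0.45 to 2.62; edgeR, adjusted p = 0.924). Neither difference was called. Among single groups, the log2 difference was -2.35 for GLY_HC versus GLY_LC (SE 0.77; edgeR, adjusted p = 0.210), -1.16 for CON_HC versus CON_LC (SE 0.73; adjusted p = 0.905), 2.14 for GLY_LC versus CON_LC (SE 0.76; adjusted p = 0.608) and 0.95 for GLY_HC versus CON_HC (SE 0.73; adjusted p = 1). The interaction of GLY with CFP was -1.19 (SE 1.04; edgeR, adjusted p = 0.999).

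The size of the GPX3 differences depended on cow 912. Its 1382 CPM compares with at most 203 CPM in the other 6 cows of GLY_LC, whose mean was 93.7 ± 66.6 CPM. Without it, the difference of HC versus LC was -0.98 (SE 0.44; edgeR, adjusted p = 0.365) and that of GLY versus CON was 0.77 (SE 0.43; edgeR, adjusted p = 0.9999). GLY_LC versus CON_LC came to 0.57 (SE 0.64; edgeR, adjusted p = 1), GLY_HC versus GLY_LC to -0.78 (SE 0.64; adjusted p = 0.780) and the interaction to 0.37 (SE 0.88; adjusted p = 0.9999). In CON cows the difference rested on a single animal as well, since without CON_LC cow 60, which had 231 CPM, CON_HC versus CON_LC came to -0.46 (edgeR, adjusted p = 0.976).

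SOD3, the extracellular superoxide dismutase that binds to the matrix around vessels, differed with CFP in the direction opposite to GPX3. It ran from 3.51 to 17.0 CPM in CON_HC (median 7.31) and from 1.83 to 8.25 CPM in CON_LC (median 3.57). In the GLY groups it ran from 1 to 16.04 CPM in GLY_HC (median 6.43) and from 1.06 to 12.1 CPM in GLY_LC (median 2.47). The medians were higher in HC under both treatments, while the groups overlapped. Neighbours in the order of the means (CON_HC, GLY_HC, CON_LC, GLY_LC) differed by at most 0.574 of the larger of their SDs in CPM. This order does not set HC beside LC within a treatment. Those means were 9.14 ± 5.23 CPM in CON_HC against 4.54 ± 2.56 in CON_LC, and 7.18 ± 4.59 in GLY_HC against 4.54 ± 4.05 in GLY_LC.

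The log2 difference of SOD3 between HC and LC cows was 0.84 (SE 0.33, 95% interval 0.17 to 1.51; edgeR, adjusted p = 0.235), which did not pass the threshold. It was 1.0002 in CON cows (SE 0.46; edgeR, adjusted p = 0.808) and 0.67 in GLY cows (SE 0.48; adjusted p = 0.598), and the interaction was -0.33 (SE 0.66; adjusted p = 0.999). For GLY versus CON the difference was -0.18 (95% interval -0.85 to 0.48). Without cow 912, which had 1.06 CPM, the difference of HC versus LC was 0.77 (edgeR, adjusted p = 0.331) and that in GLY cows 0.4969 (adjusted p = 0.814). The difference in GLY cows was 0.389 without GLY_HC cow 37 and 1.13 without GLY_LC cow 102, and was called in neither case.

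**Figure D3:**
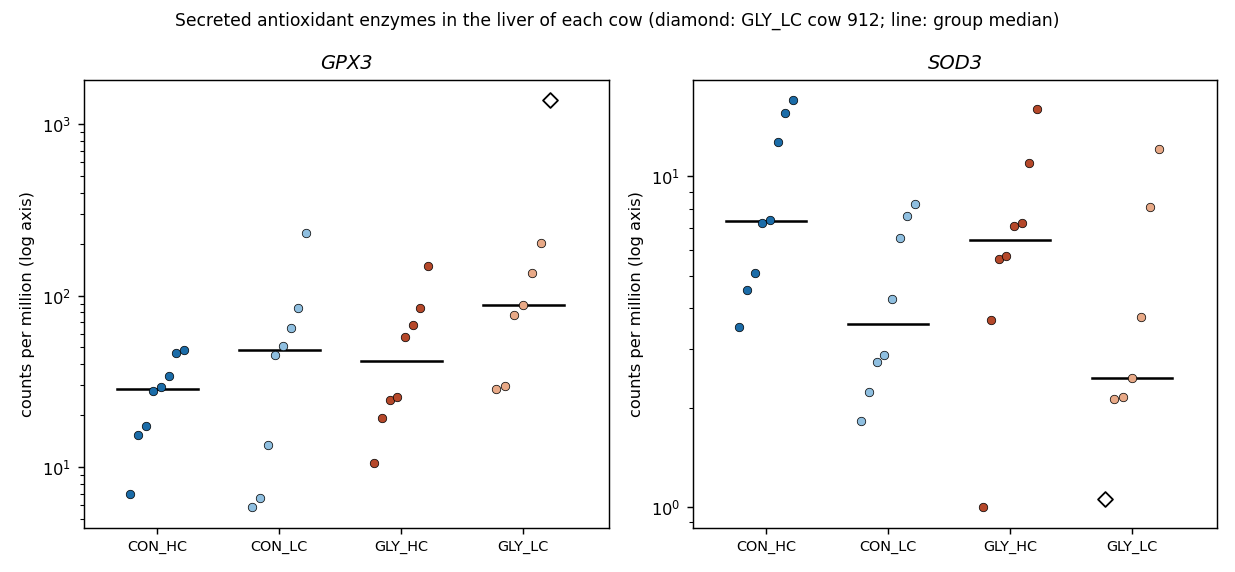
Levels in CPM of GPX3 (left) and SOD3 (right) in each cow on log axes, sorted within a group, with the group median as a line and GLY_LC cow 912 as an open diamond. GPX3 medians are higher in both LC groups and SOD3 medians in both HC groups, while the ranges of all groups overlap in both panels.

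By direction, 6 of 9 enzymes had a log2 fold change above 0 for HC versus LC, against 46.0% of all genes, and their median was 0.07 against -0.01 over all 15916 genes. For GLY versus CON, 3 of 9 were above 0, against 51.5% of all genes, with a median of -0.04 against 0.00. The 7 intracellular enzymes differed by at most 0.20 in size for HC versus LC and by at most 0.21 for GLY versus CON.

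The enzymes also differed in how much they varied between cows of the same group. The SD of log2 CPM within groups was 0.150 for SOD1, 0.189 for PRDX5 and 0.214 for PRDX6, below the median of 0.230 over the 8660 genes with a mean of at least 5 CPM. It was 0.290 for CAT, 0.346 for PRDX1, 0.385 for SOD2 and 0.429 for PRDX3. SOD3 and GPX3 reached 1.01 and 1.53, at percentiles 98.4 and 99.1 of these genes. Without cow 912 the SD of CAT came to 0.203, below the median of 0.218 that all genes then had, while GPX3 was at 1.36 and percentile 99.0.

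**Figure D4:**
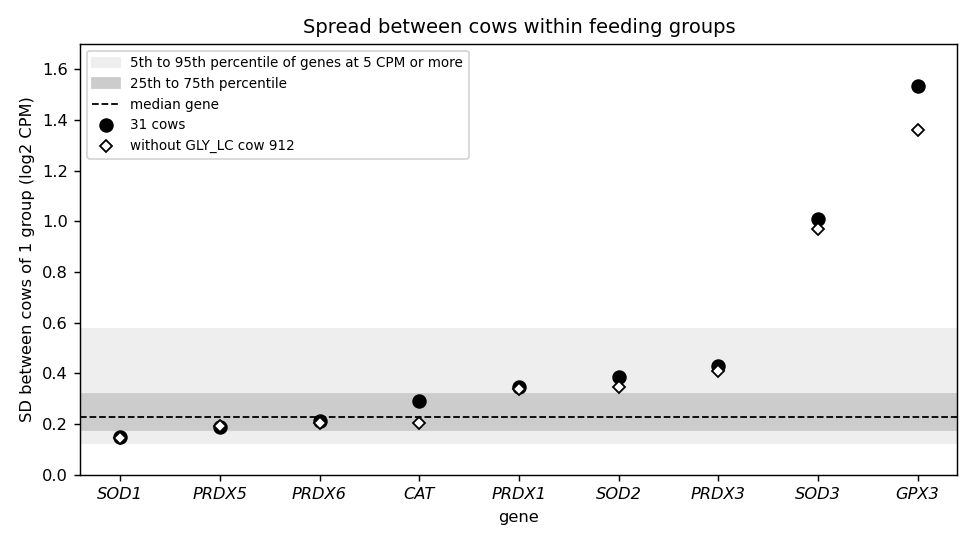
SD between cows of the same feeding group in log2 CPM for the 9 enzymes, for 31 cows (filled) and without GLY_LC cow 912 (open), against bands that show the spread of all genes with a mean of at least 5 CPM. SOD3 and GPX3 lie above the band that ends at the 95th percentile, and SOD1, PRDX5 and PRDX6 lie below the median gene.

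Enzymes that varied together were sought over the 31 cows after the group means had been removed. Of 36 pairs, 7 had a Benjamini-Hochberg adjusted p under 0.05 for Pearson's r (two-sided permutation test, 100000 resamples). SOD1 and PRDX5 varied in the same direction (r = 0.673, adjusted p = 0.00288; rho = 0.673, adjusted p = 0.000720; r = 0.515 without the 2 cows farthest from the median), as did SOD2 and PRDX5 (r = 0.575, adjusted p = 0.00677; rho = 0.566, adjusted p = 0.0104; 0.536 without the 2 cows). The 2 cows left out were those farthest from the median of the enzyme that comes first in the opening list of members. Cows extreme only in the other enzyme of a pair were kept. All pairs were measured in the same libraries and therefore share depth and composition.

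A second set was formed by CAT, PRDX6 and SOD3. CAT and PRDX6 had r = 0.606 (permutation, adjusted p = 0.00677; rho = 0.685, adjusted p = 0.000720; 0.576 without the 2 cows), SOD3 and PRDX6 had r = 0.617 (adjusted p = 0.00396; rho = 0.496, adjusted p = 0.0365; 0.5001 without the 2 cows), and CAT and SOD3 had r = 0.495 (adjusted p = 0.0246; rho = 0.407, adjusted p = 0.120; 0.516 without the 2 cows). PRDX1 ran against CAT and PRDX6 but not detectably against SOD3 (r = -0.167, permutation, adjusted p = 0.524; rho = -0.115, adjusted p = 0.736; -0.124 without the 2 cows), with r = -0.570 to PRDX6 (adjusted p = 0.00677; rho = -0.573, adjusted p = 0.0104; -0.482 without the 2 cows) and r = -0.501 to CAT (adjusted p = 0.0217; rho = -0.448, adjusted p = 0.0728; -0.425 without the 2 cows). The pairs of CAT with SOD3 and with PRDX1 did not reach an adjusted p under 0.05 by rank, and with single cows left out 5 to 8 pairs passed by Pearson's r. GPX3 belonged to none of the 7 pairs.

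**Figure D5:**
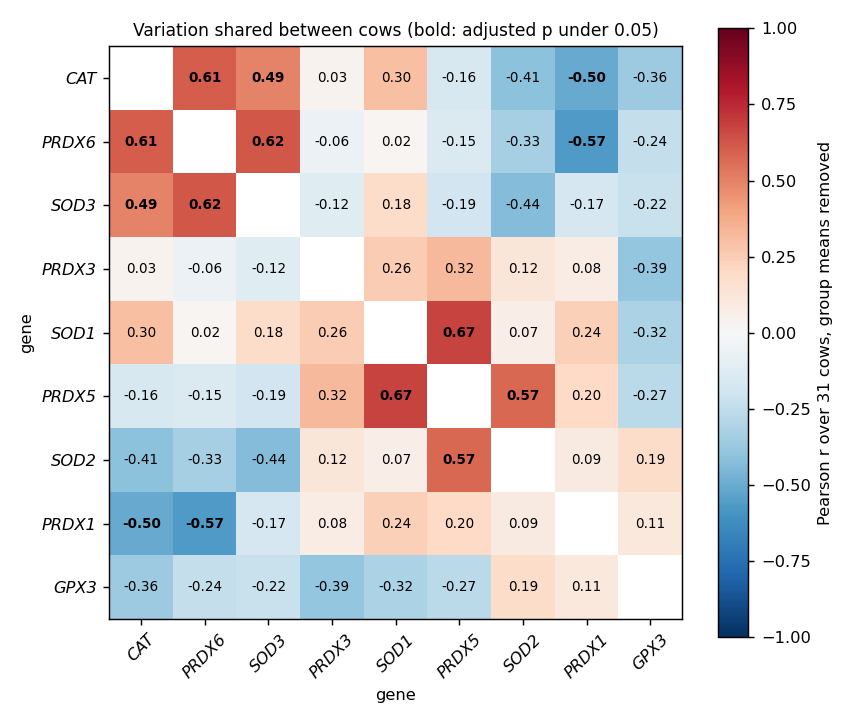
Pearson's r between each pair of the 9 enzymes over 31 cows, in log2 CPM with group means removed; bold figures mark the 7 pairs with an adjusted p under 0.05. CAT, PRDX6 and SOD3 form a red block against which PRDX1 is blue with CAT and PRDX6, and PRDX5 is red with SOD1 and SOD2.

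The 9 enzymes were also compared with 11 marker sums and with sequencing depth, 108 relations in all. Here the 2 cows left out were those farthest from the median of the marker sum concerned, not of the enzyme. For the summed hepatocyte markers, CAT, PRDX1 and GPX3 passed an adjusted p under 0.05 by Pearson's r, and only CAT also by rank. Much of that sum was ALB, with a median of 107025 CPM against a median sum of 169920 CPM, both without cow 912. CAT followed the hepatocyte sum with r = 0.748 (permutation, adjusted p = 0.00108; rho = 0.602, adjusted p = 0.0173; r = 0.692 without the 2 cows farthest from the median and 0.547 without cow 912). PRDX1 and GPX3 ran against it, PRDX1 with r = -0.562 (adjusted p = 0.0251; rho = -0.521, adjusted p = 0.0904; r = -0.541 without the 2 cows) and GPX3 with r = -0.568 (adjusted p = 0.0251; rho = -0.415, adjusted p = 0.202; r = -0.320 without the 2 cows), the relation of GPX3 thus resting on those cows. PRDX6 ran against the neutrophil sum, which was at 3.54 to 22.1 CPM (r = -0.554, adjusted p = 0.0283; rho = -0.662, adjusted p = 0.00540; r = -0.601 without the 2 cows), and CAT did so by rank (r = -0.516, adjusted p = 0.0639; rho = -0.663, adjusted p = 0.00540; r = -0.499 without the 2 cows). CAT also had r = -0.654 to the smooth muscle sum (adjusted p = 0.0251; rho = -0.338, adjusted p = 0.385), which came to -0.245 without the 2 cows and so rested on them. The part of cell composition in the values of the enzymes was not tested.

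For the enzymes other than CAT, the gene whose log2 CPM was most like each over the 31 cows was sought among 8329 genes with a symbol and a mean of at least 5 CPM, by Spearman's rho with no test. PRDX6 was most like DPYS, a dihydropyrimidinase (rho = 0.789), closely followed by TMBIM6 (0.788), and without cow 912 both (0.704 and 0.754) came after SLC44A3 (0.778). SOD1 was most like FDX1, a mitochondrial ferredoxin (0.865), PRDX5 most like SERF2 (0.910), and PRDX1 most like the tubulin gene TUBA1B (0.850). SOD2 was most like ZFPL1 (0.816), SOD3 most like ELP3 (0.735), PRDX3 most like MMP11, a matrix metalloproteinase (0.627), and GPX3 most like STEAP4, a metalloreductase (0.780). Without cow 912 the rho of each enzyme to the gene first named was between 0.584 for PRDX3 and 0.911 for PRDX5.

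Around these enzymes stand 5 lists of genes that supply or regulate them, the glutathione system, the thioredoxin system, metal and selenium supply, oxidant sources and redox regulators, with 90 genes listed and 87 rows tested. For HC versus LC over all cows 4 of 87 were called, against 1.45% of all genes, and at an unadjusted p under 0.05 7 were higher and 11 lower, against 5.88% and 7.81% of all genes. ME1, which makes NADPH from malate, was lower in HC (log2 fold change -0.71, SE 0.19; edgeR, adjusted p = 0.0768), and TXNL1, a thioredoxin-like protein, was lower as well (-0.17, SE 0.05; adjusted p = 0.0860). SEPHS2, which makes the selenium donor for selenoproteins such as GPX3, was higher by 0.23 (SE 0.06; adjusted p = 0.0918), and so was CYBB, the catalytic subunit of the phagocyte NADPH oxidase, by 0.60 (SE 0.17; adjusted p = 0.0918). TXN, a thioredoxin, was at 82.5 ± 16.4 CPM in HC (n = 16) and 106 ± 23.7 CPM in LC (n = 15), a log2 difference of -0.36 that was not called (edgeR, adjusted p = 0.107). The thioredoxin system had 5 of 15 genes lower and 0 higher at an unadjusted p under 0.05, and the glutathione system of 15 genes 0 lower and 1 higher, against the same shares of all genes. Of 19 rows each, redox regulators had 4 lower and 2 higher, oxidant sources 2 lower and 3 higher, and metal and selenium supply 0 lower and 1 higher. Without cow 912 the count of calls came to 1 of 87, ME1 (edgeR, adjusted p = 0.0971), and with single cows left out it was 0 to 5. The 3 other differences were of similar size without cow 912, -0.18 for TXNL1, 0.20 for SEPHS2 and 0.55 for CYBB (adjusted p = 0.101, 0.127 and 0.132).

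For GLY versus CON over all cows 0 of 87 genes of these lists were called against 0% of all genes (edgeR), with 6 higher and 1 lower at an unadjusted p under 0.05, against 2.48% and 1.45% of all genes. Of the 6, 4 were rows of metallothioneins, small proteins that bind zinc and copper. MT1A had a median of 64.9 CPM in GLY and 28.1 CPM in CON cows, with a log2 difference of 2.002 (SE 0.63; edgeR, adjusted p = 0.808), and MT2A medians of 131 and 76.4 CPM, with a difference of 1.06 (SE 0.36; adjusted p = 0.885). The 2 rows named MT1E differed by 2.25 (adjusted p = 0.680) and 1.35 (adjusted p = 0.968), and since metallothionein genes are near-identical, the split of reads among them is uncertain. As with GPX3, these differences depended on cow 912, which had 1850 CPM of MT1A against at most 239 CPM in any other cow. Without it they were 0.93 for MT1A, 0.48 for MT2A, and 0.75 and 0.67 for the MT1E rows, and none of them then had an unadjusted p under 0.05 (edgeR). TXNIP, the inhibitor of thioredoxin, had a log2 difference of -0.28 between GLY and CON cows (SE 0.10; edgeR, adjusted p = 0.937) and of -0.28 also without cow 912.

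In the single-group contrasts 0 of 87 genes were called (edgeR), against the shares of all genes given above. At an unadjusted p under 0.05, 2 were higher and 8 lower in CON_HC versus CON_LC (2.71% and 3.25% of all genes), 6 higher and 8 lower in GLY_HC versus GLY_LC (5.06% and 7.45%), 2 higher and 0 lower in GLY_HC versus CON_HC (1.6% and 1.31%), and 7 higher and 3 lower in GLY_LC versus CON_LC (3.71% and 1.94%). In the interaction 1 was higher and 0 lower (1.9% and 2.31%).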

How the data were processed

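Stranded mRNA libraries of liver biopsies were sequenced. After trimming with Trim Galore, the authors mapped reads to UMD3.1 using HISAT2 2.1.0, assigned unique alignments to genes using HTSeq 0.8.0 and deposited the raw counts of 24616 genes, of which 4961 carry no symbol. How HTSeq treated strand is not given in the sources used here. A second deposited table, of normalized counts, was not used.

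Genes with fewer than 20 reads in total were dropped, and the deposited counts of the other 15916 were tested with edgeR 4.0.16 (TMM, quasi-likelihood F test) in R 4.3.3. The model held 4 groups, and an additive model of treatment and CFP gave HC versus LC and GLY versus CON over all cows. The SE is the size of the log2 fold change over the root of F, and 95% intervals use the t distribution. Log2 CPM had a prior count of 2. DESeq2 1.42.0, other normalizations, filters and thresholds, a depth covariate and leaving out each cow were alternatives. DESeq2 without cow 912 was added after the data were seen. Correlations were computed in Python 3.11.15.

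The members, the lists and the tests were chosen with earlier results of these data known. All members are named, and of the lists every called gene and, for HC versus LC and GLY versus CON, the 5 genes with the smallest p. The scripts were tested on simulated counts. Within groups, all 105 pairs of cows differed by more than sampling noise (chi-square per gene 24.5 to 487), and each cow is 1 replicate. Depth limits SOD3 most, at 1 to 17.0 CPM. Sequences, gene coordinates and lengths were not used here. Of the genes that these rules and the closer look at the oxidase cover, 2 are not reported here.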

Additional observations from a re-analysis of the deposited data

Results flagged for a closer look

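In each of 36 sets of CPM values, 9 enzymes in 4 groups, the highest and the lowest cow were compared with the rest. Dixon's criterion at the 95% level was used, which flags about 1 in 20 sets by chance when values are normally distributed. Normality of the CPM values was not tested, and neither were the flags on the log2 scale, so this rate is not given for these sets. In CPM, 5 values were flagged. GLY_LC cow 912 had the lowest CAT of its group, 3240 CPM against 6810 CPM in the next cow, and the highest GPX3, 1380 CPM against 203 CPM. CON_LC cow 60 had the highest GPX3 of its group, 231 CPM against 84.7 CPM. GLY_HC cow 131 had the lowest PRDX5 of its group, 81.8 CPM against 99.2 CPM, and GLY_HC cow 37 the highest PRDX6, 369 CPM against 275 CPM.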

How the results depend on the processing

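No paired analysis was possible because the groups share no animal numbers. The count of 0 enzymes held in all 7 contrasts under RLE and upper-quartile factors, no filter, filterByExpr, a robust fit, an adjusted p under 0.05 and a depth covariate, and in the 4 contrasts of single groups in fits to the compared groups only. It did not hold for HC versus LC with DESeq2, which called 1 enzyme, GPX3 (log2 -1.74, adjusted p = 0.0470), and 0 without cow 912 (adjusted p = 0.294). Over the leave-one-out fits the count for HC versus LC was 0 to 1, the 1 being GPX3 without GLY_LC cow 544 (-1.82, edgeR, adjusted p = 0.0996), and 0 to 0 elsewhere. The 7 enzyme pairs became 5 to 8. The 4 list genes called for HC versus LC became 1 without a filter, 0 at an adjusted p under 0.05, 0 with the depth covariate and 0 to 5 with 1 cow left out. Signs turned for PRDX6 in GLY versus CON with the depth covariate (-0.0277) and, with DESeq2 without cow 912, for SOD3 in GLY_LC versus CON_LC (0.17) and for the GPX3 interaction (0.38). With 1 cow left out, values crossing 0 were -0.47 to 0.17 for SOD3 in GLY_LC versus CON_LC, -0.60 to 0.14 for the SOD3 interaction, -1.89 to 0.37 for the GPX3 interaction, -0.0421 to 0.11 for SOD2 and -0.049 to 0.018 for PRDX5 in HC versus LC, and -0.0465 to 0.016 for PRDX5 and -0.0343 to 0.0435 for PRDX6 in GLY versus CON. The cause was not tested. Over all genes, the 231 calls for HC versus LC were 434 with DESeq2, 134 without a filter, 92 with the depth covariate, 55 at an adjusted p under 0.05 and 136 without cow 912.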

Other observations

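Subunits of the phagocyte NADPH oxidase, the enzyme that makes superoxide in neutrophils and macrophages, were chosen for a closer look after the call of CYBB had been seen. CYBB ran from 6.25 to 19.9 CPM in HC cows (median 13.4) and from 4.93 to 13.1 CPM in LC cows (median 8.33). NCF1, CYBA and NCF4 were not called for HC versus LC. NCF1 differed by 0.34 on the log2 scale (edgeR, adjusted p = 0.255), CYBA by 0.31 (adjusted p = 0.383) and NCF4 by 0.10 (adjusted p = 0.866). The 7 macrophage markers summed to 495 to 900.2 CPM in HC cows (median 699) and to 531 to 816 CPM in LC cows (median 620). The 5 neutrophil markers summed to 7.98 to 22.1 CPM in HC cows (median 14.5) and to 3.54 to 21.8 CPM in LC cows (median 10.7). The part of both lists in these values was not tested.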
